A study of Arabidopsis thaliana with 8 samples.

Results

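Every genotype of the study was measured on a pair of Affymetrix ATH1 arrays, and the sample titles end in the letter B on one array of the pair and in A on the other. The 4 B arrays are compared here with the 4 A arrays within genotype, which uses all 8 arrays of the series. The genotypes are rGRF3x35S:GIF1, rGRF3, 35S:GIF1 and the wild type Col-0, and per-array values are given in that order throughout. All are Arabidopsis thaliana, sampled as vegetative apices with leaf primordia from 20-day-old plants on soil at 23 °C in days of 8 h light and 16 h dark. The labels describe rGRF3 plants as overexpressing GRF3, a growth-regulating transcription factor, and 35S:GIF1 plants as overexpressing its co-activator GIF1 from the broadly active 35S promoter. The combined line carries both transgenes. Nothing in the labels says what the letters mark, such as a harvest, a culture or a hybridization, so they are treated as a shared mark of unstated origin. Of 22746 probe sets that are not Affymetrix controls, 14005 were tested, those reaching a log2 signal of 4 on 2 or more arrays. The probe sets for the GRF3 and GIF1 genes are unnamed in the annotation used, so the transgenes were not analysed here.

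Several of the processes met below have well-known regulation in leaves. Anthocyanins are red flavonoid pigments made from dihydroflavonols through dihydroflavonol reductase, then decorated with sugars and acyl groups, and their genes respond to light, cold and sugar. Glucosinolates are sulfur-rich defence compounds whose side chains come partly from methionine. Chloroplasts keep a small genome of their own that encodes core subunits of the photosynthetic complexes and part of their gene expression machinery, while most other photosynthesis genes are nuclear.

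The B and A arrays differed over a wide set of genes. With genotype and letter in one limma model, which is the paired comparison with genotype as the block, 3439 probe sets (24.6% of 14005) passed a Benjamini-Hochberg adjusted p of 0.05. Of these, 1658 (11.8%) were higher and 1781 (12.7%) were lower on the B arrays. The differences were mostly small, since 2809 of the 3439 averaged less than 2-fold, with a median size of 0.58 on the log2 scale over all that passed. A smaller set of 268 probe sets (1.91%) was at least 2-fold apart in the same direction in all 4 genotypes, 186 (1.33%) higher and 82 (0.586%) lower on B, and each of the 268 also passed the limma test. Of the 14005, 365 met the filter only through the arrays of 1 letter, 137 of them among the 3439. The 4 B and the 4 A arrays did not overlap at 4095 probe sets (29.2%), or at 27.2% of the 7498 genes counted with 1 probe set each. At the 2-fold limit, the member nearest to it had a smallest pair difference of 1.0, and the nearest probe set with the same sign in all pairs outside it had 0.999. Leaving out the rGRF3x35S:GIF1, rGRF3, 35S:GIF1 or Col-0 pair in turn gave 1796, 1969, 1063 and 2634 probe sets past the threshold, the lowest of them without the 35S:GIF1 pair. Across all tested probe sets the median difference was -0.01, and higher and lower calls occurred at every signal level, as the plot of difference against signal shows.

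**Figure D1:**
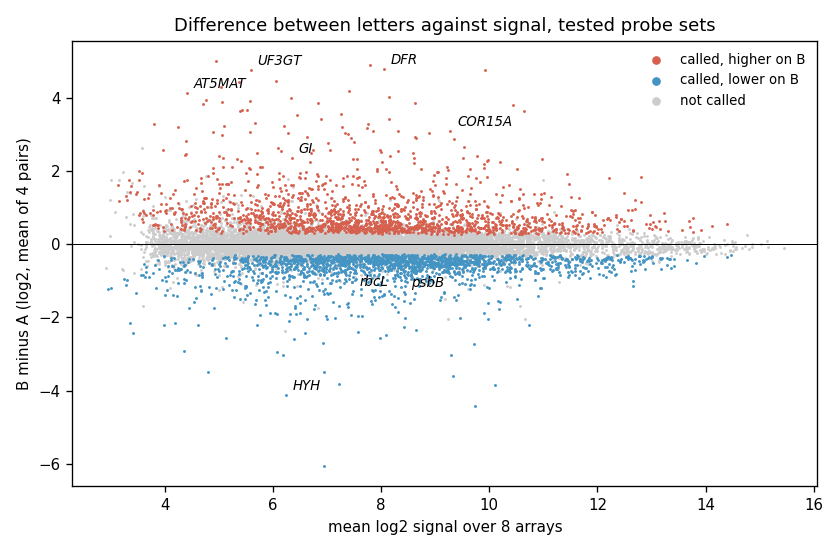
Difference between letters (log2, B minus A, mean of 4 genotype pairs) against mean log2 signal over 8 arrays for the 14005 tested probe sets, with 1658 called higher on B in red, 1781 called lower in blue and the rest in grey. Calls spread over the whole signal range, with DFR near the top and HYH near the bottom. UF3GT and AT5MAT, also labelled, met the filter only through their B arrays, so their differences are not read.

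Letter took a larger share of the variation than genotype. Within a genotype, the median absolute difference between the B and A array was 0.24 in rGRF3x35S:GIF1, 0.23 in rGRF3, 0.23 in 35S:GIF1 and 0.31 in Col-0. Between any 2 genotypes of the same letter it was 0.14 to 0.26 on the B arrays and 0.13 to 0.18 on the A arrays. Of the total sum of squares over the tested probe sets, letter took 56.0% with 1 degree of freedom, genotype 26.7% with 3 and the remainder 17.2% with 3. The B minus A differences of 2 genotypes correlated across probe sets with a Pearson r of 0.59 to 0.75, where probe sets are not independent replicates. Col-0 had the most probe sets 2-fold apart within its pair, 709 higher and 648 lower on B, against 450 to 537 higher and 239 to 301 lower in the other genotypes. Values of both Col-0 arrays were deposited with more decimal places, and whether these arrays were processed apart was not tested.

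The largest differences upward on the B arrays included DFR, a gene of anthocyanin synthesis. Of the 3 tested genes of the anthocyanin list, UF3GT and AT5MAT met the filter only through their B arrays, so no count or median of the list is read. Over all 7498 genes, 22.6% were called (9.6% higher and 13.0% lower), with a median difference of -0.03. DFR, the dihydroflavonol reductase that commits flavonoids to anthocyanin, had log2 signals of 11.19, 10.30, 9.88 and 10.44 on the B arrays, against 6.25, 5.71, 4.42 and 6.25 on the A arrays. The groups were far apart, with the lowest B array more than 3 log2 units above the highest A array. The difference was 4.79 ± 0.20 (SE), or 27.8-fold (limma, adjusted p = 0.00038). UF3GT, which adds xylose to anthocyanins, had 8.22, 7.70, 7.38 and 8.60 on the B arrays, against 3.52, 3.71, 2.53 and 3.1 on the A arrays. All 4 A arrays stood below the filter level of 4 and all 4 B arrays above it. AT5MAT, an anthocyanin malonyltransferase, had 6.46, 6.39, 5.67 and 7.38 on the B arrays, against 2.35, 2.41, 2.25 and 2.35 on the A arrays. Its A arrays lay close to the array floor of 2.115, and no fold or test is given for these 2 genes.

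Other genes of flavonoid synthesis and glycosylation were higher on B as well. All 3 tested passed with a median of 1.05, where 9.6% of all genes were called higher. Each leave-out of 1 pair kept all 3, but 1 of the 3 passed without the filter and 0 in an ordinary linear model. CHIL, a chalcone isomerase-like protein that aids flavonoid synthesis, averaged 8.29 ± 0.42 on the B arrays and 6.64 ± 0.30 on the A arrays (SD, n = 4 each), a difference of 1.65 ± 0.14 (adjusted p = 0.0019). The flavonoid glycosyltransferases UGT78D2 and UGT78D1 were higher by 1.05 and 0.74, with no overlap between letters. The single tested regulator on the lists, HYH, went the other way. HYH encodes a bZIP transcription factor of light signalling related to HY5 and had 2.81, 3.49, 4.01 and 6.40 on the B arrays, against 7.81, 8.04, 8.43 and 8.92 on the A arrays. Every B array was below every A array, Col-0 B being the highest of the B arrays, and the difference was -4.13 ± 0.39 (adjusted p = 0.0026), the largest downward difference among the genes named here. AFR, an F-box protein of far-red light signalling that was chosen after its values were seen, had 4.98, 5.38, 4.96 and 6.59 on the B arrays, against 7.05, 7.14, 7.03 and 8.35 on the A arrays. Again no B array reached the lowest A array, and Col-0 had the higher value at both letters (difference -1.92 ± 0.10, adjusted p = 0.00045). GI, the afternoon-phased clock gene GIGANTEA, had 7.78, 7.40, 7.54 and 7.40 on the B arrays, against 5.91, 5.55, 5.19 and 4.0 on the A arrays, a difference of 2.37 ± 0.27 (adjusted p = 0.004). It was the only tested gene of the afternoon and evening clock list, and no gene of the morning list was tested.

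**Figure D2:**
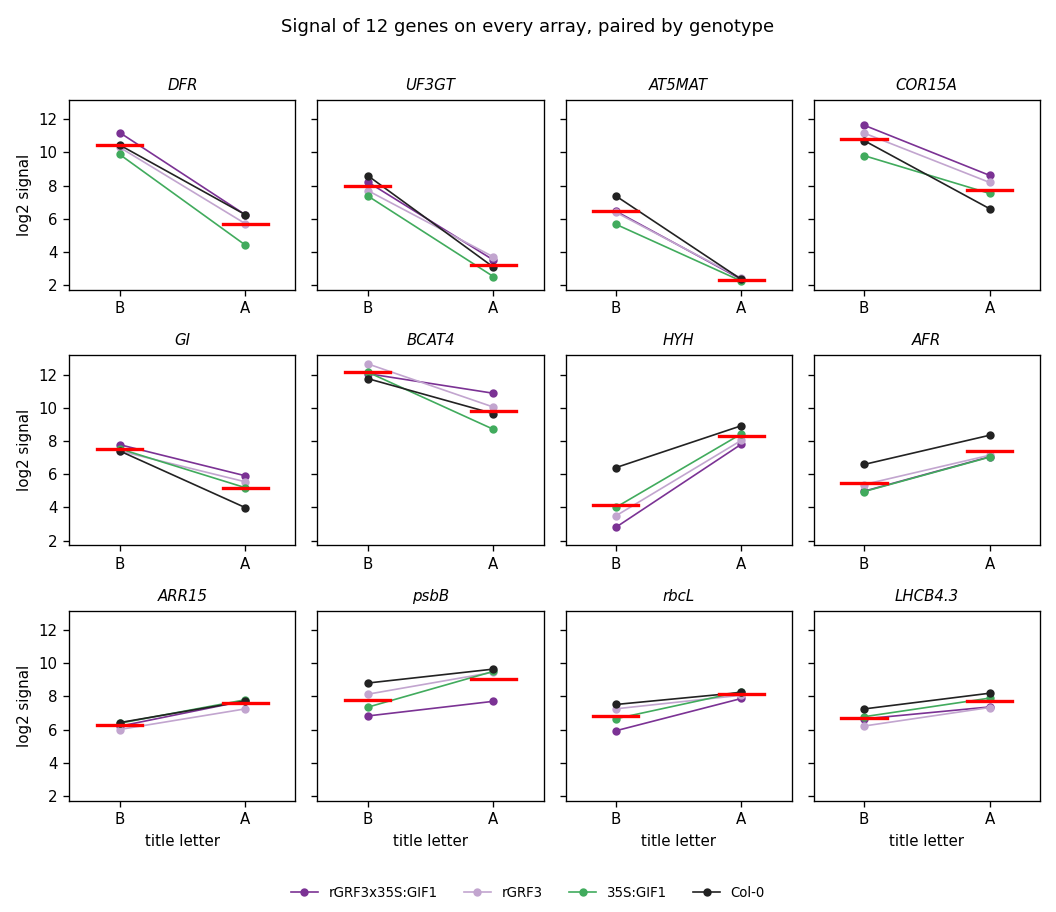
Log2 signal of 12 genes on every array, with the B array left and the A array right, a line joining the pair of each genotype and a red bar at the mean of 4 arrays. DFR, UF3GT, AT5MAT, COR15A, GI and BCAT4 lie higher on B in every genotype, and HYH, AFR, ARR15, psbB, rbcL and LHCB4.3 lie lower. UF3GT and AT5MAT met the filter only through their B arrays.

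Glucosinolate synthesis genes were higher on the B arrays. All 4 tested glucosinolate genes passed, with a median difference of 1.65, where 9.6% of all genes were called higher. Without the filter 1 of the 4 passed, and in an ordinary linear model 0 passed. BCAT4, the aminotransferase that starts methionine chain elongation, had 12.05, 12.64, 12.15 and 11.76 on the B arrays, against 10.87, 10.04, 8.71 and 9.65 on the A arrays, and the 4 A arrays ranged over more than 2 log2 units. The difference was 2.33 ± 0.34 (adjusted p = 0.0083). UGT74B1, the glucosyltransferase near the end of the core pathway, was 3.15-fold higher on B (adjusted p = 0.0078), and GSTU20, a glutathione transferase implicated in the pathway, was higher by 1.64 ± 0.16. AOP1 had the smallest difference of the list, 0.51, at an adjusted p of 0.048. Each leave-out of 1 pair kept 3 of the 4 past the threshold. Of 3 tested sulfate assimilation genes, ATP sulfurylase APS3 (1.62 ± 0.22) and sulfite reductase SIR (0.73 ± 0.11) were higher, and APS4 did not pass.

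Cold, heat and carbohydrate genes showed a mixed picture, where 9.6% of all genes were called higher and 13.0% lower. COR15A, a cold-regulated protein of the chloroplast stroma, had 11.63, 11.16, 9.80 and 10.71 on the B arrays, against 8.61, 8.19, 7.53 and 6.61 on the A arrays, a difference of 3.09 ± 0.28 (adjusted p = 0.0022), with all 4 B arrays above all 4 A arrays. COR15B, its neighbour and near copy, was 3.08-fold higher on B. The other 3 tested cold genes did not pass, although 4 of the 5 were called higher without the Col-0 pair, with a list median of 1.49 there against 1.08 with all pairs. LTI30, a dehydrin, had a lower value on B than on A in Col-0 and a higher one in the other 3 genotypes (adjusted p = 0.22). Because COR15A and COR15B have similar sequences, their probe sets can share signal. Of 5 heat-shock genes, 2 were higher, namely AT5G48570 (ROF2), an immunophilin of the heat response, at 2.34 ± 0.32, and the co-chaperone Hop3 at 1.12 ± 0.22, and 1 was called without the rGRF3, 35S:GIF1 or Col-0 pair. Starch synthesis subunits APL3 (1.35 ± 0.15) and APL4 (1.35 ± 0.12) and the disproportionating enzyme DPE1 (0.78) were higher, and the other 2 starch genes tested did not pass. Among sugar transporters, SWEET17, a vacuolar fructose carrier, was higher on B (1.28 ± 0.12), whereas SWEET2 (-1.38 ± 0.13) and SWEET1 (-0.65) were lower. The list of sugar-starvation genes gave 1 higher and 3 lower of 12, with a median of -0.39. These SWEET genes belong to that list, and its calls were SWEET17, SWEET2, SWEET1 and ETFQO. Without the rGRF3x35S:GIF1, rGRF3, 35S:GIF1 or Col-0 pair the lower calls numbered 1, 2, 1 and 5, with medians of -0.38, -0.55, -0.45 and -0.26. ETFQO, of the branched-chain amino acid breakdown route, was lower (-1.02 ± 0.18) and was the only call of the list outside the SWEET genes. MCCA had a difference of -1.5 that did not pass (adjusted p = 0.058). PDC2, a pyruvate decarboxylase of fermentation, was 3.96-fold higher on B (adjusted p = 0.00038).

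The largest differences at genes known only by locus were of similar size. AT4G34950 (3.88 ± 0.17), AT1G73600 (3.87 ± 0.26), AT3G22240 (3.64 ± 0.77), AT4G17470 (3.43 ± 0.48) and AT1G19960 (3.42 ± 0.51) headed the higher side. For AT3G22240 the spread was wide, since rGRF3 had a pair of 11.99 on B against 11.38 on A, while the other genotypes were over 3 log2 units apart. On the lower side stood AT5G15950 (-3.83 ± 0.39), AT2G41250 (-2.74 ± 0.14), AT3G22060 (-2.59 ± 0.21) and AT1G68440 (-2.49 ± 0.27). Probe sets with no single gene in the annotation reached differences as large, 4.90 at 259878_at and 4.77 at 245928_s_at on the higher side and -4.42 at 258497_at and -3.86 at 261569_at on the lower side. Among symbol-bearing genes, JAL23, a jacalin-like lectin, BETA-VPE, a vacuolar processing enzyme, and MSRB5, a methionine sulfoxide reductase, were higher by 2.80, 2.5 and 2.25. These symbol-bearing genes were picked after their values were seen.

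Genes of the plastid genome were lower on the B arrays as a group. Of 66 tested, 51 were called lower and none higher, with a median difference of -0.67, against 13.0% called lower among all genes. Among the 51, ndhK and ndhG met the filter only through their A arrays. In 59 of the 66 the B array was the lower one in all 4 pairs. The median was -0.52 in rGRF3x35S:GIF1, -0.67 in rGRF3, -0.84 in 35S:GIF1 and -0.40 in Col-0. Without the rGRF3x35S:GIF1, rGRF3, 35S:GIF1 or Col-0 pair in turn, 31, 31, 13 and 50 of the 66 were called lower, with medians of -0.65, -0.63, -0.58 and -0.75. The rbcL gene, for the large subunit of Rubisco, had 5.93, 7.26, 6.66 and 7.52 on the B arrays, against 7.88, 8.07, 8.30 and 8.24 on the A arrays, with no overlap and a difference of -1.28 ± 0.23 (adjusted p = 0.013). The psbB gene, for a core antenna protein of photosystem II, had 6.83, 8.13, 7.35 and 8.81 on the B arrays, against 7.71, 9.46, 9.51 and 9.64 on the A arrays. Its B and A arrays overlapped because the rGRF3x35S:GIF1 A array was low, and the difference was -1.30 ± 0.23 (adjusted p = 0.013). That same array had the highest 25S rRNA control signal, 10.90, against 6.22 to 8.23 on the other 7, and its part in the plastid differences was not tested. The 25S rRNA signal was lower on B in 3 of the 4 pairs, as given with the controls below.

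By complex, the counts with all 4 pairs were as follows. Of the NDH complex genes, ndhE (-1.16), ndhH (-1.03), ndhD (-1.02), ndhJ (-0.999), ndhA (-0.84) and ndhI (-0.50) passed. The ndhC gene did not pass (-0.29, adjusted p = 0.077). The ndhK and ndhG genes met the filter only through their A arrays, so no NDH median is read. Of 14 plastid ribosomal protein genes, 13 passed with a median of -0.56. All 5 photosystem I genes passed with a median of -0.53, and 5 of 6 ATP synthase genes passed with a median of -0.65. Photosystem II gave 8 of 15, with a median of -0.39. Its psbE and psbF genes had differences of -0.07 (adjusted p = 0.63) and -0.07 (adjusted p = 0.55). Of 4 RNA polymerase subunit genes 2 passed, and of 5 cytochrome b6f genes 2 passed. Without the 35S:GIF1 pair the NDH genes called lower, with ndhK and ndhG counted, fell from 8 to 5 of 9. Ribosomal proteins fell to 2 of 14, photosystem I to 1 of 5, ATP synthase to 0 of 6 and photosystem II to 3 of 15. RNA polymerase fell to 0 of 4, cytochrome b6f to 1 of 5 and the 8 remaining genes to 1. Without the rGRF3 pair, photosystem I gave 1, photosystem II 3, ATP synthase 0 and cytochrome b6f 1. Without the rGRF3x35S:GIF1 pair, photosystem I gave 1, ribosomal proteins 7, photosystem II 5, ATP synthase 3, cytochrome b6f 1, RNA polymerase 1 and the remaining genes 5, and ATP synthase gave 3 without the Col-0 pair. With all pairs, the 8 remaining genes, among them rbcL, accD, clpP and matK, all passed with a median of -0.80. Neighbouring plastid genes are often transcribed together, so these genes are not independent.

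**Figure D3:**
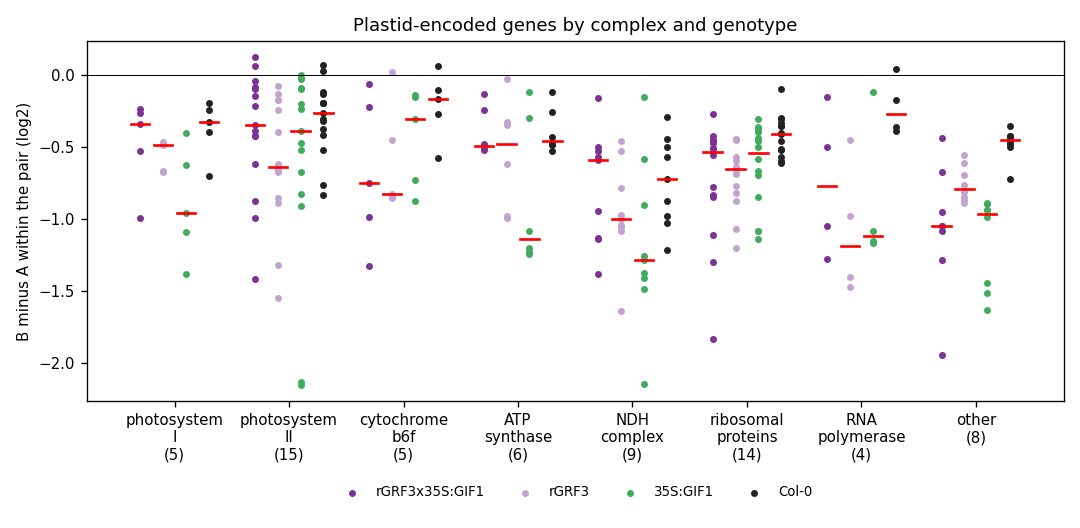
Difference between the B and A array of each genotype (log2) for 66 plastid-encoded genes grouped by complex, with the number of genes in brackets, 1 point per gene and genotype and a red bar at the median. Outside the NDH group, the medians lie below 0 in every group and all 4 genotypes. In the NDH group, ndhK and ndhG met the filter only through their A arrays, so its medians are not read.

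Some nuclear photosynthesis genes were lower on B, where 13.0% of all genes were called lower. Of 9 chlorophyll and carotenoid synthesis genes, 8 were called lower, with a median of -0.42. They included HEMA2, the first committed enzyme of tetrapyrrole synthesis (-0.68 ± 0.15), the lycopene cyclase LYC (-0.53 ± 0.11), and the magnesium-branch genes CHLM (-0.44 ± 0.11) and CHLI2 (-0.32 ± 0.09). PORB, a protochlorophyllide reductase, had a difference of 0.53 that did not pass (adjusted p = 0.12). These calls were near the threshold, and leaving out the rGRF3x35S:GIF1, rGRF3, 35S:GIF1 or Col-0 pair kept 2, 0, 0 and 1 of the 8. Without the Col-0 pair, 1 of the 9 was called higher. Among 11 nuclear photosystem and electron transport genes 4 were lower, led by NdhL (-0.94 ± 0.14), and 7 did not pass. The 4 became 2 without the rGRF3 pair and 1 without the 35S:GIF1 pair. Of 3 light-harvesting genes LHCB4.3 was lower (-0.97 ± 0.10) and 2 did not pass. The Calvin cycle enzymes PRK (-0.61 ± 0.09) and SBPASE (-0.55 ± 0.09) were lower, and Rubisco activase RCA did not pass (-0.27, adjusted p = 0.062). The peroxisomal hydroxypyruvate reductase HPR of photorespiration had 12.002, 11.87, 11.83 and 11.82 on the B arrays, against 12.61, 12.58, 12.53 and 12.80 on the A arrays, lower on B by 1.68-fold with no overlap (adjusted p = 0.0052).

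**Figure D4:**
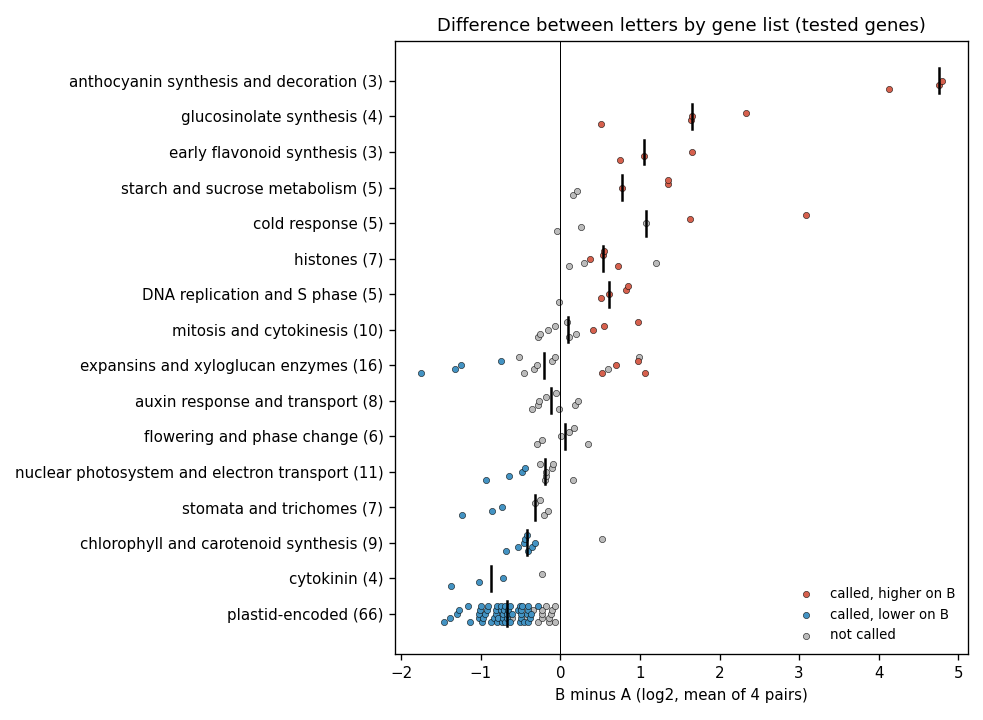
Difference between letters (log2, B minus A, mean of 4 pairs) for the tested genes of 16 lists, with the number of genes in brackets, 1 point per gene coloured by call and a black bar at the list median. Glucosinolate genes and those of the early flavonoid list lie to the right, cytokinin and plastid-encoded genes to the left, and auxin and flowering genes close to 0. The anthocyanin median is not read, because UF3GT and AT5MAT met the filter only through their B arrays. XTH18, ndhK and ndhG met it only through their A arrays. HIS1-3, WAG2, EXLB1 and EXPA9, none of them called, met it only through the arrays of 1 letter, and the histone median is not read either.

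Some cell division genes were higher on B and some epidermal development genes were lower. Among all genes, 9.6% were called higher and 13.0% lower. Of 7 histone genes 4 were higher on B, the H2B genes HTB1 (0.72 ± 0.14), HTB11 (0.53 ± 0.09) and HTB4 (0.37 ± 0.09) and the centromeric histone HTR12 (0.55 ± 0.10). HIS1-3, which did not pass, met the filter only through the arrays of 1 letter, so no median of these 7 is read. With the filter on all 8 arrays, 4 of 6 histone genes were higher, with a median of 0.45. Of 5 replication genes 4 were higher with a median of 0.62: the DNA polymerase alpha subunits POLA3 (0.85 ± 0.17) and ICU2 (0.62 ± 0.10), the MCM helicase subunit PRL (0.82 ± 0.16) and POLD3 (0.51 ± 0.09). None of these 4 histone or 4 replication genes passed without the 35S:GIF1 pair. Mitosis genes were called higher in 3 of 10, 1 of them HTR12, against 9.6% of all genes. Without the 35S:GIF1 pair 1 of the 10 was called. Of 5 beta-tubulin genes 3 were higher, TUB1 (0.46), TUB7 (0.43) and TUB5 (0.40), and TUB9 (0.35) and TUB6 (-0.06) did not pass. Beta-tubulin is not among the lists. It was picked, with results known, from 40 families of 4 or more genes that share a symbol stem. Most members were called in 6 of these families, beta-tubulin among them, and none in 9. No count without a pair is given for the 5 beta-tubulin genes. The stomatal peptide STOMAGEN had 9.39, 9.48, 9.41 and 9.45 on the B arrays, against 10.27, 10.27, 10.11 and 10.49 on the A arrays, lower on B by 1.81-fold with no overlap (adjusted p = 0.0033). Of 7 stomatal and trichome genes 3 were lower, and 1 without the 35S:GIF1 pair. The trichome regulators GIS (-1.24 ± 0.27) and TRY (-0.73 ± 0.14) were lower, and the stomatal lineage factors SPCH, MUTE and FMA did not pass, with adjusted p of 0.1, 0.17 and 0.25.

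Hormone lists differed from each other in their counts, beside 9.6% called higher and 13.0% called lower among all genes. Of 4 tested cytokinin genes 3 were lower, the type-A response regulators ARR15 (-1.37 ± 0.09) and RR16 (-0.72 ± 0.11) and the cytokinin glucosyltransferase UGT76C2 (-1.02 ± 0.12), and each leave-out of a pair gave 3 of 4. ARR15 had 6.21, 6.01, 6.39 and 6.43 on the B arrays, against 7.74, 7.25, 7.80 and 7.72 on the A arrays, every B array lying below every A array. Among 8 auxin genes and 6 gibberellin genes none passed in limma, with 2 of each list at an unadjusted p under 0.05. Jasmonate genes were mixed, with OPCL1, a ligase of jasmonate synthesis, higher (1.33 ± 0.13) and the transcription factor MYC4 lower (-0.58 ± 0.12), and with 2 higher and 2 lower of 7. The lower calls became 0 without the rGRF3x35S:GIF1 or 35S:GIF1 pair and 1 without the rGRF3 or Col-0 pair. Wall-loosening genes were also mixed, 4 higher and 4 lower of 16, with 1 to 3 higher and 1 to 4 lower when each pair was left out in turn. EXPB3 (1.06 ± 0.18) and XTH16 (0.97 ± 0.12) were higher, while EXPA8 (-1.25 ± 0.22) and the xyloglucan gene XTH19 (-1.75 ± 0.45) were lower. Its neighbour XTH18, also among the 4 lower, met the filter only through its A arrays, so no difference or test is given for it. The flowering, iron and cellulose lists had 0 of 6, 0 of 5 and 0 of 7 genes past the limma threshold, with 2, 0 and 3 at an unadjusted p under 0.05. Lists named here by their function hold few tested members, because the annotation names 335 of their genes, of which 254 were tested.

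Other lists are set beside all genes, of which 22.6% were called, 9.6% higher and 13.0% lower. Of 9 genes of protein folding in the endoplasmic reticulum 3 were higher on B, 1 without the 35S:GIF1 pair, among them the co-chaperone ATERDJ3B (0.72 ± 0.10) and the calreticulin CRT1b (0.57 ± 0.08). Ribosome biogenesis gave 1 higher and 2 lower of 9. The RNA helicase PRH75 of the nucleolus had 11.31, 11.25, 11.08 and 11.15 on the B arrays, against 12.17, 12.12, 12.15 and 11.99 on the A arrays, with no overlap and a difference of -0.91 ± 0.08 (adjusted p = 0.0023), and the rRNA dimethylase DIM1A was lower by a similar size (-0.74 ± 0.09). Antioxidant and glutathione transferase genes gave 2 higher and 4 lower of 15, 1 lower without the 35S:GIF1 pair, with GSTU16 (-0.94 ± 0.15), GSTU18 (-0.84 ± 0.11) and the thylakoid ascorbate peroxidase TAPX (-0.66 ± 0.11) lower and ATMDAR2 (0.74 ± 0.11) higher. Mitochondrial respiration gave 1 higher and 1 lower of 14, and autophagy and senescence 1 higher of 14. Among leaf polarity and growth genes, the transcription factor TCP15 was the only 1 of 7 that passed (0.62 ± 0.08). Of 2296 neighbouring pairs of tested nuclear genes, both members were called higher in 34, both lower in 45 and in opposite directions in 45.

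No probe set passed a test of whether the letter difference itself changed with a transgene. The difference between letters in lines with against without 35S:GIF1 gave 0 of 14005 probe sets past an adjusted p of 0.05 (0.0%) in limma, with 398 at an unadjusted p under 0.05. For lines with against without rGRF3 it gave 0 (0.0%), with 873 at an unadjusted p under 0.05. The lowest adjusted p was 0.053, at AT4G02360, which was picked for that value after the data were seen. It had 5.702, 5.564, 2.143 and 2.119 on the B arrays, against 2.119, 2.143, 2.119 and 2.119 on the A arrays. Both rGRF3 lines stood well above the floor on B, and all other arrays lay near it, a difference between lines of 3.49 that did not pass. The gene met the filter only through those 2 B arrays, and with the filter on all 8 arrays it was not tested and the lowest adjusted p was 0.72, at another probe set. With 2 residual degrees of freedom these tests have little power, and a p that misses the threshold does not show that the letter acted alike in all lines.

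Controls on the arrays also differed by letter. Of 16 control probe sets for Arabidopsis messenger RNA with signal, 11 were higher on B in all 4 pairs, with a median difference of 0.36. Actin and GAPDH made up those 11, and ubiquitin sets differed by -0.10 to 0.08. The spiked bacterial controls added at hybridization were lower on B in all 4 pairs for 14 of 18 sets (median -0.25), as were the poly-A spikes for 12 of 17 (median -0.35). The 25S rRNA control had 6.345, 6.76, 6.66 and 7.01 on the B arrays, against 10.90, 8.23, 7.88 and 6.22 on the A arrays. It was lower on B in 3 pairs and higher in 1, with a mean difference of -1.61 (exact paired permutation test, p = 0.25). The 3' minus 5' signal of actin, a measure of RNA integrity, was 1.02 ± 0.13 on B and 1.14 ± 0.13 on A (SD, n = 4 each), lower on B in all 4 pairs (exact paired permutation test, two-sided p = 0.125, the smallest that 4 pairs allow). For GAPDH it was -0.07 ± 0.12 on B and 0.004 ± 0.13 on A, lower on B in 2 of 4 pairs (exact p = 0.625), and for ubiquitin -0.45 ± 0.13 on B and -0.33 ± 0.04 on A, lower on B in 3 of 4 (exact p = 0.25). Whether these control differences bear on the gene differences was not tested.

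The tissue label was checked on marker genes. The leaf primordium regulators PHV, YAB3 and YAB5 had log2 signals of 7.78 to 8.25, 8.40 to 8.89 and 6.50 to 6.79 over the 8 arrays, and none passed between letters. The stem cell gene CLV3 was at the array floor on all 8 arrays. Of 10 root markers the annotation named 1, EXPA7, which was at the floor on 7 arrays and at 2.19 on the 35S:GIF1 A array. Of 4 senescence markers it named SAG29, at 5.99 on the rGRF3x35S:GIF1 B array and 3.37 on the rGRF3 B array, against at most 2.14 on the other 6. Markers of flowers, pollen and seeds were not named and were not analysed here.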

How the data were processed

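Total RNA of the 8 samples was measured on 1 Affymetrix ATH1 array each. The values the authors deposited are on a log2 scale, and the submitters' processing notes name GCRMA (background correction, normalization and probe summary) and limma, with no version, scan date or build given in the sources used here. The values run from 2.115 to 15.55, with array medians of 5.90 to 5.97. Probe sets were named through the platform annotation (13513 with 1 gene, 503 with several), of which 13436 matched the RefSeq gene table of assembly TAIR10.1.

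Of 22810 probe sets, 64 Affymetrix controls were left out. Those reaching a log2 value of 4 on 2 or more arrays were fitted with limma 3.58.1 in R 4.3.3 (lmFit, eBayes) with genotype and letter as terms, Benjamini-Hochberg adjustment over all 14005 and a threshold of 0.05. Tests of a letter difference that changes with a transgene added 1 term. Pairing by letter is a shared mark in the titles, and the letter differences of all pairs of genotypes correlated at 0.59 or more. On simulated data with 14005 probe sets, 95% of 100 probe sets changed by 1 and 100% of 100 changed by 2 (log2) were recovered, with 11 false calls. The simulated noise was normal and independent between probe sets, with no effect shared by an array. Real arrays need not meet this, so these shares do not carry over to the calls. Tables and plots used Python 3.11.15, pandas 2.3.3, numpy 2.4.6 and matplotlib 3.10.9.

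Lists were matched by symbol and synonym and described over a single probe set for each gene, chosen by its mean signal (the highest). Entries whose symbol belongs to another gene were removed after the matches were seen. Genes were named as the 12 largest differences per direction among single-gene probe sets that passed, had the same sign in all 4 pairs, did not overlap between letters and averaged at least 4 at both letters, plus up to 4 passing members per direction of each list, or the 2 largest where none passed. Up to 2 probe sets per direction without a single gene, and 12 symbol-bearing genes per direction added after seeing the values, were also named. The beta-tubulin genes were given outside these rules. The comparison, the members and the lists were chosen with earlier results of these data known. Nothing says that the arrays come from separate cultures, so p-values reflect only the spread among the arrays at hand, possibly technical, and 4 arrays per letter limit the precision. Alternatives were no filter, a filter on all 8 arrays, no block, trend and robust eBayes, an ordinary linear model, quantile normalization, array weights and leaving out each pair.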

Additional observations from a re-analysis of the deposited data

Results flagged for a closer look

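Among 306 groups of 4 arrays (the B or the A arrays of a named gene or control), 22 held an array standing apart. Its gap to the nearest other array was past Dixon's critical value for 4 values. For 4 replicates of 1 condition, chance passes this limit in about 1 group in 20. Each group here holds 1 array of each of the 4 genotypes, so that rate need not apply. With 1 array per genotype, a genotype difference cannot be told apart from a stray array. psbB stood low in rGRF3x35S:GIF1 on the A arrays, at 7.71 against 9.46 to 9.64 in the other 3. On the A arrays, psbT was 6.07 in rGRF3x35S:GIF1 and 7.47 to 7.66 in the others. BUB3.2 had 4.97 in Col-0 on the B arrays, while the others ranged over 4.74 to 4.77. UGT78D2 stood high in Col-0 on the B arrays, at 9.51 against 8.53 to 8.65 in the other 3. On the B arrays, AT5G61590 was 8.45 in Col-0 and 10.004 to 10.19 in the others. UGT76C2 had 6.67 in Col-0 on the B arrays, while the others ranged over 7.01 to 7.07. SIR stood low in 35S:GIF1 on the A arrays, at 10.46 against 10.64 to 10.67 in the other 3. On the B arrays, NRPA1 was 8.10 in Col-0 and 7.49 to 7.59 in the others. APL3 had 7.58 in Col-0 on the B arrays, while the others ranged over 6.81 to 6.93. XTH19 stood low in rGRF3x35S:GIF1 on the B arrays, at 3.61 against 4.17 in each of the other 3. On the B arrays, MYC4 was 6.56 in rGRF3x35S:GIF1 and 7.10 to 7.21 in the others. Hop3 had 4.34 in rGRF3x35S:GIF1 on the B arrays, while the others ranged over 5.53 to 5.63. XTH16 stood low in rGRF3 on the A arrays, at 7.46 against 8.01 to 8.11 in the other 3. On the B arrays, AT1G48100 was 8.78 in Col-0 and 6.63 to 6.93 in the others. AT1G48100 had 8.98 in rGRF3x35S:GIF1 on the A arrays, while the others ranged over 9.69 to 9.82. HTR12 stood high in Col-0 on the B arrays, at 7.18 against 6.65 to 6.70 in the other 3. On the A arrays, probe set 261569_at was 12.28 in Col-0 and 11.93 to 11.98 in the others. ARR15 had 7.25 in rGRF3 on the A arrays, while the others ranged over 7.72 to 7.80. AFR stood high in Col-0 on the A arrays, at 8.35 against 7.03 to 7.14 in the other 3. On the A arrays, UGT74B1 was 7.94 in Col-0 and 8.73 to 8.82 in the others. The 5S rRNA control had 2.17 in rGRF3 on the B arrays, while the others ranged over 2.24 to 2.25. The 3' minus 5' difference of ubiquitin stood high in rGRF3 on the A arrays, at -0.26 against -0.35 to -0.34 in the other 3. Col-0 was the array that stood apart in 11 of the 22, and the cause was not tested.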

How the results depend on the processing

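The paired fit with genotype as the replicate block called 3439 probe sets, and the fit without that block called 3342, of which 2891 were also called in the same direction in the paired fit. Counts fell by over 1.5 times in these cases, except without the Col-0 pair, which gave 2634. Testing all 22746 probe sets without the filter gave 1069 (528 higher, 541 lower on B), with 5280 at an unadjusted p under 0.05. The ordinary linear model, which does not share the spread between probe sets, gave 419 (217 higher, 202 lower). Leaving out 1 pair gave 1063 to 2634 (614 to 1314 higher, 449 to 1320 lower), with fewer arrays in each fit. The count at least 2-fold apart in all remaining pairs ranged from 309 to 347 in those fits. Trend and robust eBayes, array weights, quantile normalization and the filter on all 8 arrays gave 3984, 4288, 3486 and 3502. No named probe set that passed changed direction in the alternatives that tested it, and 12 of the 126 were not tested with the filter on all 8 arrays. Of 148 named probe sets, 126 passed; 77 lost the call without the filter, 102 in the ordinary linear model, 12 without the block, and 48, 27, 24 and 18 without the 35S:GIF1, rGRF3x35S:GIF1, rGRF3 and Col-0 pair. List counts under the alternatives were added after the data were seen: plastid-encoded genes called lower numbered 13 of 66 without the filter, 39 without the block and 3 in the ordinary linear model. Without the filter, replication genes called higher numbered 1 of 5 and histone genes 0 of 7. Chlorophyll and carotenoid genes called lower numbered 1 of 9 there, cytokinin genes 2 of 4 and stomatal and trichome genes 1 of 7. In the ordinary linear model these lists gave 0, except 1 for cytokinin and 1 for stomata and trichomes. Both tests of a letter difference that changes with a transgene gave 0 in every alternative run. Dropping the B array of a pair gives the same comparison as dropping its A array. Signals near the floor, as at AT5MAT on the A arrays, are poorly measured.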
